A study of Mus musculus with 12 samples.

Results

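The genes described here were those whose RNA was lower after knockdown of p400 and also lower after knockdown of Tip60 in mouse embryonic stem cells. They were chosen by their measured values on the scale of the submitters' normalized table: a mean log2 ratio of p400 knockdown over control of -0.5 or less, a mean log2 difference of Tip60 knockdown from control of -0.5 or less, and a mean control level of at least 8. Names beginning with Zfp, Arid or Smarc were set aside, which removed 5 probes. The rule kept 116 of 41174 probes, which stand for 105 of 27670 gene names. Since each contrast chose the members, the sizes of their falls are given as a description and carry no test.

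Cells of E14, an established line of mouse embryonic stem cells, received esiRNA at 0.33 ng/µl for 72 hr with a lipid reagent, and 1 well was harvested per sample. An esiRNA is a pool of short interfering RNAs cut from a long double-stranded RNA. The esiRNA of the p400KD samples was directed at p400 (gene Ep400), that of the Tip60KD samples at Tip60 (gene Kat5), and that of the EGFPcontrol samples at EGFP, a reporter that is not a mouse gene. All groups are the same line, carried esiRNA and were harvested at the same time, and untreated cells were not among the samples analysed here. The p400 knockdown was read on 4 two-colour arrays with EGFP RNA in the other dye. The p400 RNA was in Cy5 on replicates 1 and 3 and in Cy3 on replicates 2 and 4. The Tip60 knockdown was read on 4 single-colour arrays against 4 of EGFP. The submitters set Tip60 replicate 3 aside because its intensity profile was an outlier, and the rule did not use it. They call the replicates biological, which here means separate wells of 1 line.

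Tip60 and p400 are the catalytic subunits of a large chromatin complex. Tip60 acetylates histone tails, chiefly of H4 and H2A, and p400 is an ATPase that exchanges histone variant H2A.Z into nucleosomes. In embryonic stem cells the complex occupies promoters of active genes and also of silent developmental genes, and it is best known there for holding the latter down. Genes that lose RNA with the complex are therefore the less often described side of its effect.

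The knockdowns themselves were measured first. Ep400 fell by 0.58 on the log2 scale in p400 knockdown (SE 0.09, limma with Benjamini-Hochberg adjustment, adjusted p = 0.00556), and stood at 0.17 (adjusted p = 0.0901) in Tip60 knockdown. Kat5 fell by 1.49 in Tip60 knockdown (SE 0.07, adjusted p = 1.36e-05) and by 0.43 in p400 knockdown (adjusted p = 0.0109). On the p400 arrays 26067 to 29020 of 41174 probes were well above background in each RNA, and on the single-colour arrays 23620 to 28371, with 20905 on Tip60 replicate 3. All 116 members were well above background on all 8 single-colour arrays and in each RNA of all 4 p400 arrays. None was saturated on a single-colour array, and none of their 1392 values came from a spot that the scanner software marked as an outlier. Precision is limited by the small number of arrays. In RNA from whole wells, fewer cells that express a gene and less RNA per cell cannot be told apart.

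More probes met the p400 threshold than the Tip60 threshold. Of 17545 probes with a control level of at least 8, 1040 met the p400 threshold and 203 met the Tip60 threshold, and 121 met both, before names were set aside. These 121 were 59.6% of the Tip60-low probes and 11.6% of the p400-low probes. The contrasts share no array, and whether their EGFP RNA came from the same wells is not given in the sources used here. Across the 116 members the mean p400 log2 ratio ran from -1.37 to -0.50 with a median of -0.76, and the Tip60 difference ran from -0.98 to -0.50 with a median of -0.58. Over all 17545 probes the medians were -0.0025 and -0.04. The fall was larger in p400 knockdown for 95 of the 116 members. At least a 2-fold fall was reached by 22 members in p400 knockdown and by 0 in Tip60 knockdown. The p400 values are ratios within two-colour arrays, and the Tip60 values are differences between single-colour arrays. In the size of the falls, knockdown and array type therefore cannot be told apart. The members' control levels had a median of 10.2, against 10.7 for all 17545 probes.

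**Figure D1:**
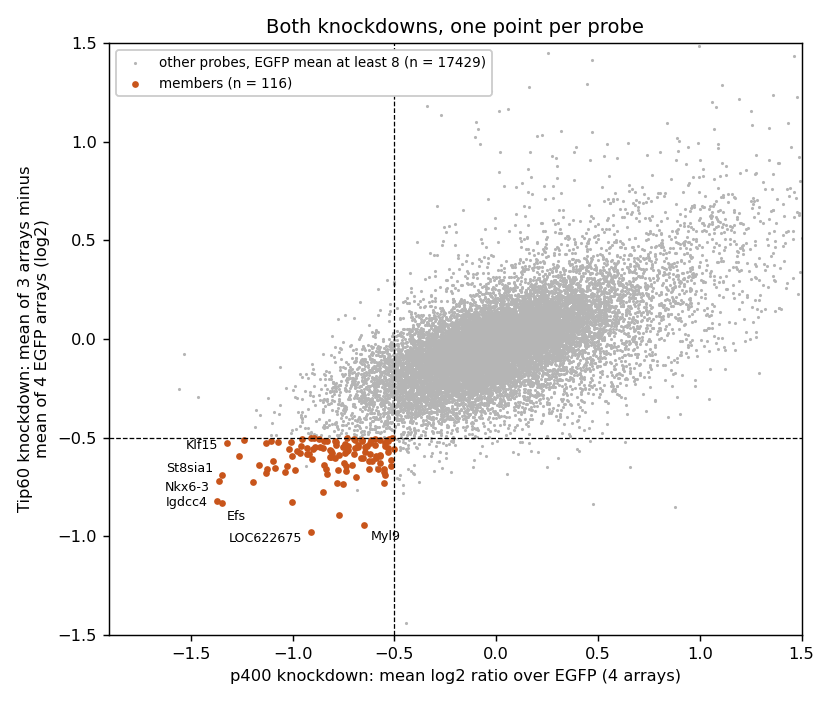
Each point is 1 probe with a control level of at least 8, placed by its mean log2 ratio in p400 knockdown (x axis) and its mean log2 difference from EGFP in Tip60 knockdown (y axis). Dashed lines mark the thresholds of -0.5, the 116 members are orange, and the 5 probes set aside by name and all others are grey. The axes leave out 212 probes with larger changes. Members stretch further along the p400 axis, to -1.37, than along the Tip60 axis, to -0.98.

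The probes nearest the thresholds were close to each other. Just inside the p400 threshold lay Clip3, a microtubule-binding protein of membrane traffic (-0.50), Gnb4, a G protein beta subunit (-0.51), and Sall1, a zinc finger repressor of stem cells and kidney (-0.52). Just outside it lay Orai3, a calcium channel (-0.49), Ncapd2, a condensin subunit (-0.48), and Mettl27 (-0.48). At the Tip60 threshold Gnb4 was inside at -0.50, and other probes of Grb10 and Psrc1, and Dmrt1, a factor of the germ line, were outside at -0.50. At the control level, AK053814 (8.09), AK086789 (8.12) and E130102H24Rik (8.13) were inside and 5730410E19Rik (7.97), AK085773 (7.94) and Mid1, a microtubule-associated ubiquitin ligase (7.90), were outside. The probes that failed 1 threshold alone numbered 81 for p400, 901 for Tip60 and 9 for the control level.

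The deepest joint falls, ranked by the smaller of a gene's changes, included a receptor, an enzyme of glycolipids, a homeobox factor and an adhesion scaffold. Igdcc4, called Nope on the array, is a surface protein of the DCC and neogenin family of immunoglobulin receptors. Its probe lies on chromosome 9 at 65167156 to 65167215 (build mm7), and gave p400 log2 ratios of -1.43, -1.25, -1.31 and -1.49 on replicates 1 to 4. Its log2 levels were 8.64, 8.32, 8.44 and 8.59 in EGFP replicates 1 to 4 and 7.66, 7.63 and 7.74 in Tip60 replicates 1, 2 and 4. The knockdown arrays all lay below the controls, and the mean falls were 2.58-fold in p400 (log2 -1.37 ± 0.11, SD, n = 4) and 1.77-fold in Tip60 knockdown (log2 -0.82). Tip60 replicate 3 stood lower still, at 7.25.

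St8sia1, the sialyltransferase that makes the ganglioside GD3, had its probe on chromosome 6 at 142913022 to 142913081. The p400 log2 ratios were -1.52, -1.34, -1.32 and -1.21 on replicates 1 to 4. Its log2 levels were 8.54, 8.68, 8.37 and 8.56 in EGFP replicates 1 to 4 against 8.02, 7.81 and 7.71 in Tip60 replicates 1, 2 and 4. The groups did not overlap, and the falls were 2.54-fold (log2 -1.35 ± 0.13, SD, n = 4) and 1.61-fold (log2 -0.69). A second St8sia1 probe at a control level of 8.30 gave smaller values, -0.40 in p400 and -0.22 in Tip60 knockdown.

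Nkx6-3 is a homeobox factor of the stomach and hindbrain, whose probe lies on chromosome 8 at 21943759 to 21943818. It had p400 log2 ratios of -1.14, -1.73, -1.47 and -1.11 on replicates 1 to 4. EGFP replicates 1 to 4 had log2 levels of 8.74, 9.04, 8.84 and 9.06, and Tip60 replicates 1, 2 and 4 had 8.47, 8.09 and 8.03. The spread between p400 arrays was wide (SD 0.29) beside a mean of -1.36, and Tip60 replicate 1 came closest to the controls, still below the lowest of them.

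Efs, a docking protein of the Cas family that Src kinases phosphorylate, was the brightest of these genes. The first of its probes lies on chromosome 14 at 49783391 to 49783450 and gave p400 log2 ratios of -1.16, -1.08, -1.71 and -1.44 on replicates 1 to 4. Its log2 levels were 11.98, 12.08, 12.08 and 12.09 in EGFP replicates 1 to 4 and 11.29, 11.17 and 11.21 in Tip60 replicates 1, 2 and 4. A second Efs probe, at 49783473 to 49783532, had the same direction with means of -1.19 and -0.73, so each probe of the gene was a member. The falls of the first probe were 2.54-fold and 1.78-fold.

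**Figure D2:**
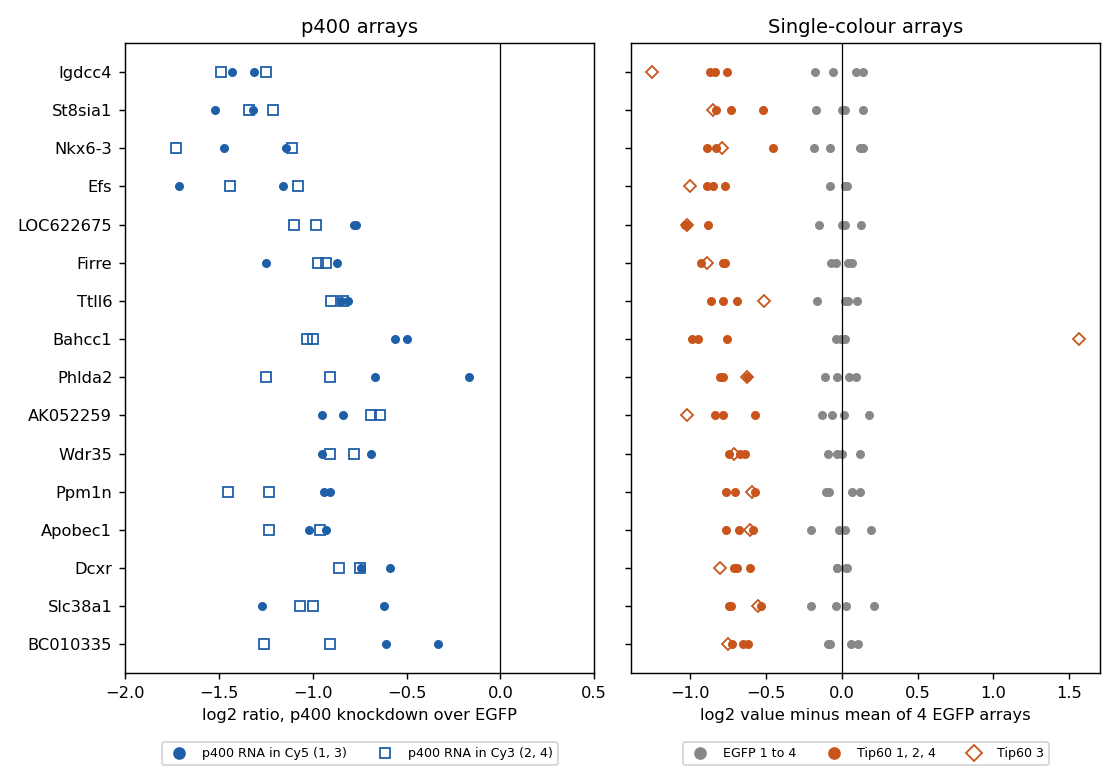
The 16 genes with the deepest joint falls, with 1 probe each. From the top, Igdcc4, St8sia1, Nkx6-3 and Efs come first whatever their rank, and the others follow by the smaller of their falls. The left panel gives the log2 ratio on each p400 array by dye, and the right panel gives each single-colour array minus the mean of the 4 EGFP arrays. All p400 ratios lie below 0, Tip60 replicates 1, 2 and 4 lie to the left of the controls, and Tip60 replicate 3 of Bahcc1 lies far to the right.

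The promoters of members with a deep fall in either knockdown are shown because the complex acts at promoters. The sequences are the 250 bases before the annotated start, 5′ to 3′ on the gene's strand, from RefSeq on build GRCm38.p6. Capitals mark matches, on either strand, to the TATA motif TATAAA, the motif CCAAT, the GC box GGGCGG, the E box CACGTG, the ETS core CGGAAG and the CArG box, the serum response element. The promoters of Igdcc4 (chr9:65101236-65101485, plus strand), St8sia1 (chr6:142964453-142964702, minus strand), Efs (chr14:54926789-54927038, minus strand), the myosin light chain gene Myl9 (chr2:156775214-156775463, plus strand) and the long non-coding RNA gene Firre (chrX:50635322-50635571, minus strand) read as follows.
Igdcc4: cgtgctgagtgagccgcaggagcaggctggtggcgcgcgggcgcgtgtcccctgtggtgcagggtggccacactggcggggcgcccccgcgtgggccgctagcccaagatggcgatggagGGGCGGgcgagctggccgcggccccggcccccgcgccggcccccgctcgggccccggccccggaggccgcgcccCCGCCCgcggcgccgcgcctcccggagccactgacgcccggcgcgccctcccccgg
St8sia1: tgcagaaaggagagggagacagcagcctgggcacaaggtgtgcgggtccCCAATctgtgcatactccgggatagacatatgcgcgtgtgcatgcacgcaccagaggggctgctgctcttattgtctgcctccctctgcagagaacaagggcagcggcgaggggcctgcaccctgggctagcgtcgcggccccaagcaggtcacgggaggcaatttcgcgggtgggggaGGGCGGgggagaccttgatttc
Efs: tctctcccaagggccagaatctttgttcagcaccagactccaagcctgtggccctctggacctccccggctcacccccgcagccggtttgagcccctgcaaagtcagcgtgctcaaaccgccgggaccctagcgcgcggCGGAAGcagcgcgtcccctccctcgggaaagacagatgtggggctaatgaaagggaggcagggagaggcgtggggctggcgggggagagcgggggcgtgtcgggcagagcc
Myl9: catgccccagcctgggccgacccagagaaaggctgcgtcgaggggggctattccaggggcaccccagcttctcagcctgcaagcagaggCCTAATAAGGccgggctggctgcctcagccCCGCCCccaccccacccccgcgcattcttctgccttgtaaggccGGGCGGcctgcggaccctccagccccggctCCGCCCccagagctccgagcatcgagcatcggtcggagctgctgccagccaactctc
Firre: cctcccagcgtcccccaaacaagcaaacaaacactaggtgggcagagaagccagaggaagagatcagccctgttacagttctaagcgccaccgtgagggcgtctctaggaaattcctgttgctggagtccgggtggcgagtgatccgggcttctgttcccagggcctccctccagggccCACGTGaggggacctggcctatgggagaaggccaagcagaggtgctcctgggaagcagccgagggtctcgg

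None of the 6 motifs is in all 5 promoters. Igdcc4 has GC boxes that begin 130 and 56 bases before its start. St8sia1 has a CCAAT box 201 bases and a GC box 22 bases before the start, counted to the far end of each match. Efs has the ETS core alone, and Firre the E box alone. Myl9 has GC boxes and, 161 to 152 bases before the start, a CArG box, which was the only one among the members with an entry. A match describes letters and not binding.

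Over the 66 members with an entry, promoters of 300 bases, 250 before and 50 after the start, were rich in G and C, as were those of other expressed genes. The median G and C share was 62.5%, against 61.3% for 8832 array genes with a control level of at least 8 and 52.7% for all 27025 promoters. GC boxes were in 63.6% of the members' promoters, 66.7% of those of expressed genes and 35.9% of all. TATAAA was in 7.58%, 7.11% and 14.2%, and CCAAT was in 40.9%, 39.4% and 37.9%. The ETS core was in 15.2% of the members' promoters (10 of 66), 33.4% of those of expressed genes and 17.2% of all. The E box was in 6.06%, 10.6% and 7.24%. The CArG box was in 1.52%, 1.40% and 1.57%, so its share among the members was close to that in the other sets. No test was made of these shares.

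The other genes of the 16 with the deepest joint falls were of many kinds. LOC622675, named on the array as similar to a zinc finger protein, had the largest Tip60 fall of all members at -0.98 beside -0.91 in p400 knockdown. Firre, a long non-coding RNA of the X chromosome that shapes nuclear architecture, was a member by each of its 2 member probes, at -1.01 and -1.02 in p400 and -0.83 and -0.65 in Tip60 knockdown. Ttll6, a ligase that adds glutamate chains to tubulin, had the tightest p400 values of these genes (-0.85 ± 0.04, SD, n = 4) and a Tip60 difference of -0.78. Phlda2, an imprinted gene that restrains placental growth, was very bright (control level 15.1), but its p400 ratios ran from -0.17 on replicate 1 to -1.25 on replicate 2.

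AK052259, a transcript with no gene name, stood at -0.78 in p400 and -0.73 in Tip60 knockdown. Wdr35, a part of the ciliary transport complex IFT-A, stood at -0.83 and -0.68, and Ppm1n, a protein phosphatase of the PP2C family, at -1.13 and -0.68. Apobec1, the cytidine deaminase that edits the apolipoprotein B transcript, stood at -1.04 and -0.68. The 3 that remain were Dcxr, which reduces xylulose (-0.73 and -0.67), Slc38a1, a glutamine transporter (-0.99 and -0.67), and BC010335 (-0.78 and -0.66). Bahcc1, a chromatin protein with a BAH domain, stood at -0.77 in p400 knockdown and -0.89 in Tip60 replicates 1, 2 and 4, with a different result on replicate 3 that is given with that array.

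The ratio of the p400 fall to the Tip60 fall, read on unlike array types, differed from gene to gene. The p400 fall was 2.50 times the Tip60 fall on the log2 scale for Klf15, a Kruppel-like factor of metabolism, whose p400 ratios were -0.87, -1.18, -1.72 and -1.52 on replicates 1 to 4. It was 2.41 times for Zfp773, a zinc finger gene whose name on the array did not give it away, and 2.14 times for Marcks, a substrate of protein kinase C that binds actin. At the other end Myl9, the regulatory light chain of smooth muscle and non-muscle myosin, fell more in Tip60 knockdown (-0.95) than in p400 knockdown (-0.65), a ratio of 0.69. Its p400 ratios were -0.48, -0.39, -0.97 and -0.76, and its log2 levels were 11.93, 11.87 and 11.80 in Tip60 replicates 1, 2 and 4 against 12.76, 12.99, 12.72 and 12.78 in EGFP. A probe of Grb10, an imprinted adaptor that damps insulin signalling, followed (-0.55 and -0.73), and then Macroh2a3, annotated as a transcribed pseudogene of a macroH2A histone (-0.55 and -0.69). Across the 116 members the falls in the p400 and Tip60 contrasts had an r of 0.22, over a range that the thresholds cut short, so this is a description alone.

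Single arrays overlapped with the controls for few members. All 4 p400 ratios were below 0 for 114 of 116 members, against 25.1% of all 17545 probes, with the rule having used these arrays. The exceptions were Mirg, an RNA of the imprinted Dlk1 to Dio3 region, at 0.34 on replicate 1, and LOC639396 at 0.17 on the same array. Tip60 replicates 1, 2 and 4 all lay below the lowest EGFP array for 114 of 116 members, against 17.8% of probes, again with the rule having used them. The exceptions were Fign, a microtubule-severing ATPase, and AK086789, each with Tip60 replicate 1 above EGFP replicate 3.

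Tip60 replicate 3 was the only knockdown array that the rule did not use, although its values are set against the same EGFP arrays. It stood at least 0.5 below the EGFP mean for 99 of 116 members (85.3%), against 8.05% of all 17545 probes. Below the lowest EGFP array it stood for 110 members, against 47.6% of probes. Its median difference over the members was -0.69, against -0.11 over all probes. Replicates 1, 2 and 4 had member medians of -0.57, -0.61 and -0.59.

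On that array 4 members stood above the highest EGFP level, against 17.0% of all probes. Slc1a3, the glial glutamate transporter, was at 13.5 on Tip60 replicate 3 against 9.33 to 9.40 in EGFP and 8.67 to 8.92 in Tip60 replicates 1, 2 and 4. Bahcc1 was at 11.9 against 10.3 in EGFP and 9.32 to 9.55 in the other Tip60 arrays. Proc, the anticoagulant protein C, was at 10.9 against 9.58 to 9.85 in EGFP. Klhdc2, a ubiquitin ligase adaptor, was at 8.80 against 8.59 to 8.71. Replicate 3 also had fewer probes above background than any other array, and the part of that in these values was not tested.

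**Figure D3:**
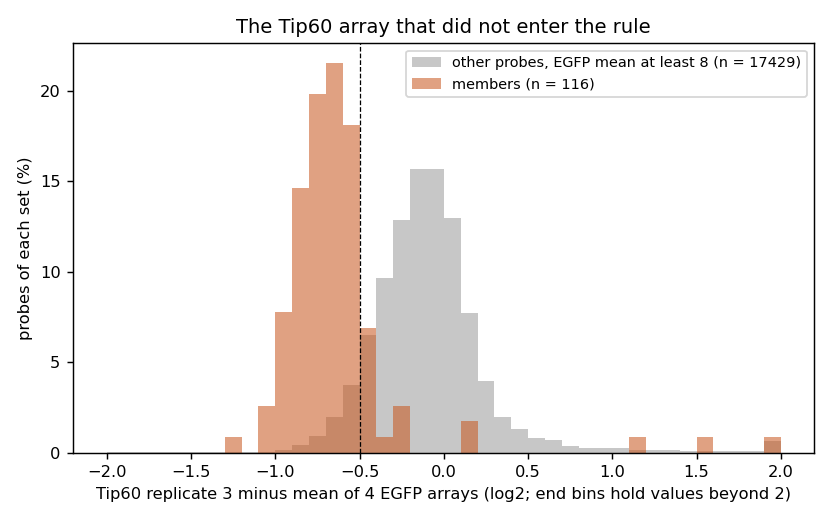
The x axis is the log2 level on Tip60 replicate 3 minus the mean of the 4 EGFP arrays, and the y axis is the share of each set of probes per bin of width 0.1. The 116 members (orange) centre on -0.69 and the other probes (grey) near 0, with 99 members at or left of the dashed line at -0.5. End bins hold values beyond 2.

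Many member genes had further probes on the array, and these did not all follow. There were 11 genes with 2 member probes each, among them Efs, Firre, Phlda2, Wdr35, Dcxr, Slc38a1 and Grb10, already named, and Bdh2, Chaserr, Msl1 and Socs2. In 42 genes there were 63 further probes with a control level of at least 8 that were not members. Of these, 51 (81.0%) were below 0 in each contrast, against 40.2% of all 17545 probes, with medians of -0.37 in p400 and -0.29 in Tip60 knockdown. The p400 threshold was met by 21 of the 63 and the Tip60 threshold by 2, and 40 met neither. The further probes lie at other places of the same genes, and whether they read the same transcripts was not determined here.

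Some genes had a brighter probe that stood near 0. Apc, the scaffold that marks beta-catenin for breakdown, was at -0.59 and -0.54 by its member probe, and at 0.11 and -0.09 by the brightest other. Pabpn1, the nuclear poly(A)-binding protein, was at -0.53 and -0.52 by its member probe and at 0.03 and -0.09 by a brighter one (control level 15.7). Sort1, a sorting receptor of the Golgi, had 3 further bright probes, which ran from -0.08 to 0.10 in p400 and from -0.03 to 0.02 in Tip60 knockdown. For these genes the fall was read by the member probe alone.

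Fitted gene by gene with the brightest probe of each, 98 of the 105 member genes were called lower in p400 knockdown, where 15.0% of 18690 genes tested were called lower by limma at an adjusted p of 0.05. In Tip60 knockdown 97 of 105 were called lower, where the share over 16949 genes was 10.3%. The rule used these contrasts, so the members' counts describe how the probes were chosen. None was called higher in either fit, where 20.1% (p400) and 15.3% (Tip60) of all genes were. The genes not called in p400 knockdown were Acta2, Apc, Cuedc1, Klhl42, Pabpn1, Pitpnc1 and Sort1, and those not called in Tip60 knockdown were Acta2, Anp32a, Apc, Cd9, Cuedc1, Pabpn1, Sort1 and Ube2b. For each of these 10 genes in all, the probe tested was not the member probe. For Cuedc1 the probes were close, and on the submitters' scale the member probe was the brighter (8.34 against 8.15).

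By role, the surface and matrix genes had 10 members with a median of -0.74 in p400 and -0.57 in Tip60 knockdown. Beside Igdcc4 they held Mmp14, a membrane-bound matrix metalloproteinase (-0.98 and -0.57), Has2, which makes hyaluronan (-0.75 and -0.63), and Ncam1, a neural adhesion molecule (-0.75 and -0.55). Dimmer Ncam1 probes gave 0.03 and 0.26 at a control level of 8.10, and -0.37 and -0.30 at 9.74. The tetraspanin Cd9 and its partner Ptgfrn were both present, at -0.62 and -0.62 and at -0.73 and -0.55 by their member probes. A much brighter Cd9 probe (control level 14.9) gave -0.45 and -0.12, and another Ptgfrn probe (8.26) gave -0.22 and -0.24. Flot2, a lipid raft protein, Bst2, which tethers viruses at the membrane, Ptprv, a receptor phosphatase, and Tro, a melanoma antigen family protein of cell adhesion, completed the group. St8sia1 was joined among enzymes of glycans and lipids by B4galnt4, which builds the LacdiNAc glycan, with p400 ratios of -1.02, -1.04, -0.97 and -1.03, the tightest of all members. Galnt6, which starts O-glycans, Etnk1, an ethanolamine kinase, and Pitpnc1, a lipid transfer protein, had p400 values from -0.64 to -0.58.

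The actin and adhesion group had 12 genes, with medians of -0.79 and -0.53. It held Marcks (-1.10 and -0.52) and its relative Marcksl1 (-0.53 and -0.50), which link actin to the membrane. Tagln, a calponin-like actin-binding protein of smooth muscle, stood at -0.90 and -0.50, and Acta2, smooth muscle actin, at -0.85 and -0.55. Rtkn (-0.71 and -0.64), the GTPase-activating proteins Srgap2 and Syde1, Srcin1, an inhibitor of Src, the band 4.1 protein Epb41l4a and the scaffold Tanc1 made up the rest with Efs and Myl9.

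Among microtubule and cilium genes Ttll6, Wdr35, Fign, Apc and Clip3 were joined by Dclk2, a doublecortin-like kinase (-0.85 and -0.64), Mtus1, a microtubule-associated tumour suppressor (-0.70 and -0.58), and Psrc1, a spindle protein. Psrc1 was the brightest member of all, at a control level of 15.3. The group's medians were -0.73 and -0.58.

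Signalling members numbered 10 genes with medians of -0.75 and -0.61. Ccnd1, cyclin D1 of the G1 phase, had p400 ratios of -0.98, -0.93, -0.95 and -0.75, and log2 levels of 11.11, 10.94 and 11.02 in Tip60 replicates 1, 2 and 4 against 11.56 to 11.68 in EGFP. These arrays did not overlap. Socs2, which damps growth hormone signalling, stood at -1.01 and -0.52 by one probe and at -0.74 and -0.53 by the other. Trib3, a pseudokinase of the stress response, was at -0.89 and -0.55. Dtx4, a ubiquitin ligase of the Notch pathway, Prkce, a protein kinase C, Cnpy1, tied to FGF signalling, Gnb4, Phlda2, Ppm1n and Grb10 were the others.

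Transcription factors and cofactors numbered 12. Kctd15, which restrains the neural crest factor AP-2, stood at -1.09 and -0.66. Gli2, an effector of Hedgehog signalling (-0.66 and -0.51), Nfkb1, a subunit of NF-kappa-B (-0.55 and -0.53), Sall1, Rai1, the nucleosome-binding factor of Smith-Magenis syndrome (-0.80 and -0.58), Irf2bp2, a corepressor, and the zinc finger gene Zfp266 were also members, with Nkx6-3, Klf15, Zfp773 and LOC622675 from above. Zfp266 and Zfp773 stayed because the array gives them clone names.

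Chromatin members were few, and their median was larger in Tip60 (-0.66) than in p400 knockdown (-0.62). The rule set aside names beginning with Arid or Smarc, so remodeller genes such as Arid2 (-0.61 and -0.52) are not counted here. Kat2b, the acetyltransferase PCAF, stood at -0.68 and -0.54. Msl1, a scaffold of the complex that acetylates lysine 16 of H4 together with MOF, stood at -0.62 and -0.66 by its brighter member probe and at -0.73 and -0.57 by the other, while 2 further probes had p400 values of -0.14 and -0.09 and Tip60 values of -0.44 and -0.46. On Tip60 replicate 3 these member probes parted, at 0.11 and -0.86 from the EGFP mean. Bcl7a, a subunit of BAF complexes (-0.57 and -0.59), and Anp32a, an acidic nuclear protein that binds histones (-0.55 and -0.67), were members with Bahcc1 and Macroh2a3.

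The long non-coding RNAs had the deepest p400 median of the groups, -1.01, over 7 probes of 5 genes. Lockd, transcribed beside the cell cycle inhibitor gene Cdkn1b, had p400 ratios of -0.62, -1.68, -1.31 and -1.45, with replicate 1 the highest, and a Tip60 difference of -0.59. Chaserr, next to the remodeller gene Chd2, stood at -1.13 and -0.53 by its dimmer probe and at -0.79 and -0.54 by its brighter one. Rian stood at -0.81 and -0.60. Rian and Mirg are imprinted transcripts of 1 locus, so they are not independent examples.

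The RNA-binding members were Apobec1, Pabpn1, Mex3a, a binder of mRNA 3′ ends (-0.73 and -0.65), and Ptbp2, the neural splicing repressor (-0.73 and -0.57). Metabolism and transport held 7 genes with medians of -0.88 and -0.58: Bdh2, which makes a mammalian siderophore, Dpys, of pyrimidine breakdown (-0.93 and -0.55), Naprt, of NAD synthesis, Trpc2, a cation channel, Dcxr, Slc38a1 and Slc1a3. Membrane traffic held Dnajc6, auxilin of clathrin uncoating (-1.16 and -0.64), Mvb12b of the ESCRT-I complex, the lysosomal GTPase Arl8a and Sort1. Ubiquitin, repair and cell death held Kbtbd11 (-1.12 and -0.66) and Klhl42, of the kelch family, Trim67, a ubiquitin ligase of neurons (-0.95 and -0.51), Ube2b, a conjugating enzyme of DNA damage tolerance, Rev1, a translesion polymerase, Bbc3, a cell death gene, Cuedc1, Klhdc2 and LOC639396. Proc, Dnajc22, a membrane J protein (-1.07 and -0.52), and Vwa3b complete the named genes. Of the 10 transcripts without a gene name, those not yet given are 3021401N23Rik, AK050084, AK083897, BC038156 and BC096458, with p400 values from -0.90 to -0.57.

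**Figure D4:**
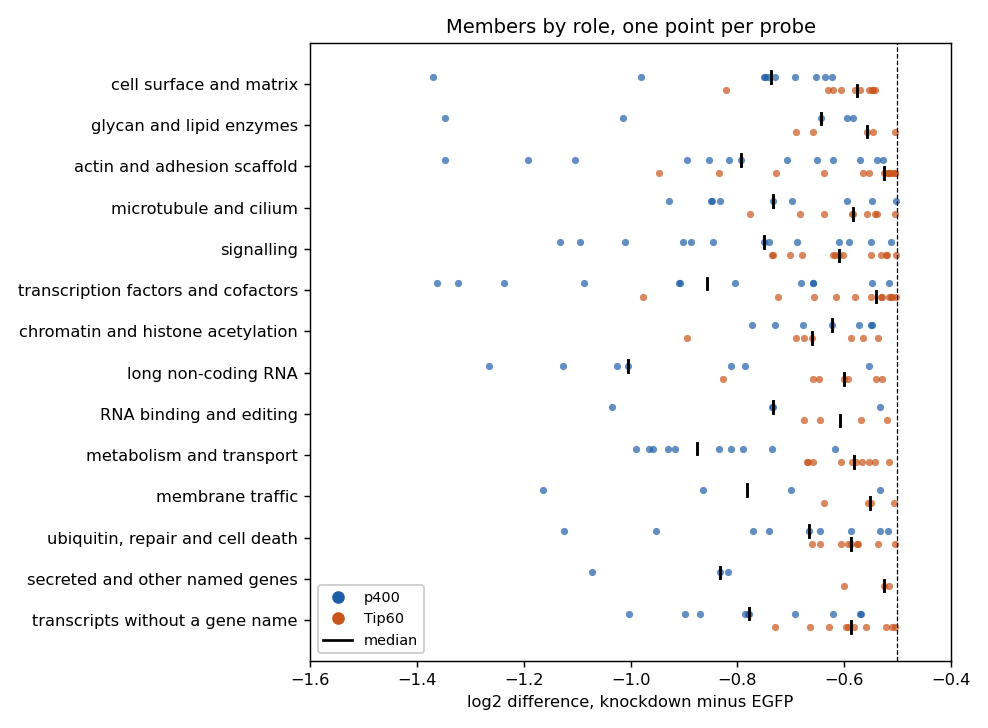
Members grouped by role, with 1 point per probe for its mean log2 difference from EGFP in p400 (blue) and Tip60 knockdown (orange) and a black bar at each group's median. The dashed line is the threshold of -0.5. The p400 medians run from -1.01 for long non-coding RNAs to -0.62 for chromatin genes, the only group whose Tip60 median (-0.66) is the larger fall.

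Some members lie close together. Of the 105 member genes, 10 (9.52%) had another member within 100 kb by their probe positions on build mm7, against 237 of 12178 (1.95%) other genes with a control level of at least 8. The pairs were Sall1 and AK052259 on chromosome 8, 8.7 kb apart, Pabpn1 and Efs on chromosome 14, 18.4 kb apart, Sort1 and Psrc1 on chromosome 3, 26.5 kb apart, Ptprv and Arl8a on chromosome 1, 46.5 kb apart, and Rian and Mirg on chromosome 12, 80.7 kb apart. Sall1 stood at -0.52 and -0.62, and AK052259 at -0.78 and -0.73. Pabpn1 and Sort1 are among the genes whose other probes stood near 0. Whether neighbouring probes read separate transcripts was not determined here.

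Close relatives of the leading members did not move as one with them. Of 6 other DCC-like receptors, 4 rose and 1 fell in p400 knockdown, and 3 rose and 1 fell in Tip60 knockdown (limma, Benjamini-Hochberg, over all genes). The list's medians were 0.44 and 0.19, beside 0.01 over all genes tested in each fit. Of those genes, 20.1% were called higher and 15.0% lower in p400 knockdown, and 15.3% higher and 10.3% lower in Tip60 knockdown. Dcc, the netrin receptor, rose by 2.99 (SE 0.16, adjusted p = 0.000435) in p400 and by 3.21 (SE 0.08, adjusted p = 9.04e-07) in Tip60 knockdown. Prtg, a receptor of the early nervous system, fell by 0.34 and 0.45 (adjusted p = 0.0104 and 0.001). Igdcc3, the nearest relative of Igdcc4, rose by 0.61 in p400 knockdown (adjusted p = 0.00397) and stood at -0.19 (adjusted p = 0.450) in Tip60 knockdown. Neo1 rose by 0.60 in the p400 fit, from 3 arrays, but its p400 mean on the submitters' scale was -0.03. Boc and Cdon rose by 0.34 and 0.27 in Tip60 knockdown, but by 0.15 and 0.09 with quantile normalization.

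Of 8 other genes of ganglioside synthesis, 2 rose and 0 fell in p400 knockdown, and 1 rose and 1 fell in Tip60 knockdown. St3gal5, which makes the GM3 that St8sia1 uses, rose by 0.45 in p400 knockdown (adjusted p = 0.00671). B3galt4, which makes GM1, rose by 0.38 and 0.50 (adjusted p = 0.00872 and 0.00651), and St3gal2, a later sialyltransferase, fell by 0.19 in Tip60 knockdown (adjusted p = 0.0289). The list's medians were 0.09 and 0.02. The 2 of 8 that rose in p400 knockdown stand beside 20.1% of all genes called higher there.

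Of 9 other Cas and Src signalling genes, 2 rose and 3 fell in p400 and 1 rose and 2 fell in Tip60 knockdown. The shares over all genes were 20.1% higher and 15.0% lower in p400, and 15.3% higher and 10.3% lower in Tip60 knockdown. Nedd9, a Cas protein like Efs, rose by 0.89 and 1.07 (adjusted p = 0.0126 and 0.0001), while Bcar3, which binds Cas proteins, fell by 0.53 and 0.38 (adjusted p = 0.00523 and 0.00841). Yes1, a Src family kinase, fell by 0.49 in p400 knockdown (adjusted p = 0.00564), and the Cas protein Bcar1 fell by 0.28 in Tip60 knockdown (adjusted p = 0.0458). Nedd9 was dim (control level 6.58), and its Tip60 value was 0.21 with quantile normalization, while its p400 value was 2.74 with the deposited log ratio. Of the other Nkx homeobox genes 6 were bright enough to test in p400 knockdown, where Nkx2-9 rose (0.32, adjusted p = 0.0280), and 5 in Tip60 knockdown, where values ran from -0.08 to 0.40 and the smallest adjusted p was 0.0928.

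Of 10 other Kruppel-like factors, 2 rose and 0 fell in p400 knockdown, among them Klf2, a pluripotency factor (0.75, adjusted p = 0.00189), and Klf9 (0.46, adjusted p = 0.00882). With median centring these stood at 0.39 and 0.14. Over all genes, 20.1% were called higher and 15.0% lower in p400 knockdown, and 15.3% higher and 10.3% lower in Tip60 knockdown. In Tip60 knockdown 1 of the 10 fell, Klf4, another pluripotency factor (-0.48, adjusted p = 0.00155). Genes of the dystrophin complex, which ties actin to the matrix and held no member, were also read: 4 of 10 fell and 1 rose in p400 and 5 of 9 fell and 1 rose in Tip60 knockdown. The list was chosen with earlier results of these data known, so its counts are no independent evidence. Utrn, utrophin, fell by 0.83 and 0.43 (adjusted p = 0.00871 and 0.00339). Another Utrn probe stood at 0.13 in p400 and -0.52 in Tip60 knockdown on the submitters' scale. Dtna, dystrobrevin, fell by 0.74 and 0.99 (adjusted p = 0.00483 and 0.000143), and its control level of 7.67 was under the minimum for members. Sgcb, a sarcoglycan, rose in p400 knockdown (0.40, adjusted p = 0.00776), and the syntrophin gene Sntb1 rose in Tip60 knockdown (0.43, adjusted p = 0.0157), but by 0.09 with quantile normalization. Dtna stood at -1.62 in p400 knockdown with the deposited log ratio.

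Genes of smooth muscle type actomyosin also fell in larger part than they rose. Of 7 genes that were not members, 5 fell and 1 rose in p400 knockdown, and 4 fell and 1 rose in Tip60 knockdown, with medians of -0.35 and -0.30. Over all genes tested 15.0% and 10.3% were called lower, and 20.1% and 15.3% higher. Cnn2, a calponin, fell by 0.49 and 0.57 (adjusted p = 0.00436 and 0.000450), and Tpm1, a tropomyosin, fell by 0.56 and 0.30 (adjusted p = 0.00765 and 0.0129). On the submitters' scale the p400 mean of that Tpm1 probe was 0.09, so its sign turns there. Mylk, the kinase that phosphorylates Myl9, rose by 0.36 and 1.38 (adjusted p = 0.0302 and 0.00948), from a level above background on 1 of 4 EGFP arrays, and its Tip60 value was 0.40 with quantile normalization. The list was drawn up with Myl9, Tagln and Acta2 already known to be lower, so its counts are no independent evidence.

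The 3 member genes of that list differed in how their probes behaved. The member probe of Acta2, on chromosome 19 at 33942803 to 33942862, gave p400 ratios of -0.89, -0.96, -0.64 and -0.92, and a Tip60 difference of -0.55. Its brightest probe (control level 13.7) gave -0.64, -0.08, 0.66 and -0.14, a mean of -0.05, and a Tip60 difference of -0.18, so the brightest probe did not show the fall of the member probe. Another probe, at a control level of 7.94, gave -0.58 in p400 and -0.43 in Tip60 knockdown. The member probe of Tagln gave p400 ratios of -0.89, -0.76, -0.88 and -1.05. Its brightest probe had a mean of -0.58 in p400 knockdown and stood 0.25 above EGFP in Tip60 knockdown on the submitters' scale. The fit gave that probe -0.73 in Tip60 knockdown, from 4 of 7 arrays with 1 of them a Tip60 array, because the other 3 spots were marked as outliers. The sign of the Tip60 value of this probe thus changes with those spots.

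**Figure D5:**
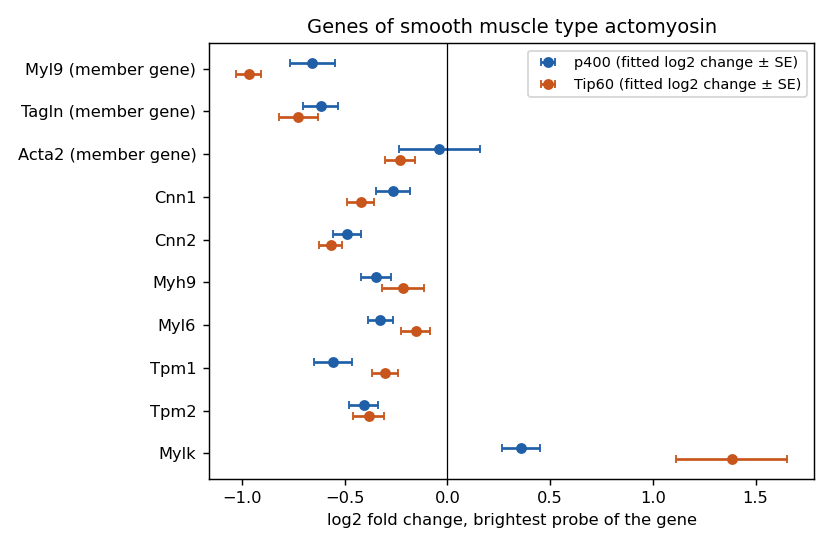
Fitted log2 fold change (x axis) with its standard error (bars) for the brightest probe of each gene of the actomyosin list in p400 (blue, 4 arrays) and Tip60 knockdown (orange, 3 Tip60 and 4 EGFP arrays, but 4 arrays in all for Tagln). Most genes lie left of 0, Acta2 overlaps 0 in p400 knockdown, and Mylk lies to the right.

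Acta2 and Tagln also mark fibroblasts, on which embryonic stem cells are often grown, so markers of other cells were read. Of 9 other fibroblast markers 6 could be tested, and in p400 knockdown 5 rose and 0 fell, while in Tip60 knockdown 3 rose and 0 fell. Among all genes tested, 20.1% and 15.3% were called higher, and 15.0% and 10.3% lower. The collagen gene Col1a1 rose by 0.80 in p400 knockdown (adjusted p = 0.00343), and the other 3 markers, Postn, Lum and Dcn, were not well above background on any EGFP array. Summed over the 9 markers that are not members, the log2 level was 11.8 to 11.9 on the EGFP arrays and 12.3 to 12.4 on Tip60 replicates 1, 2 and 4. The marker with the largest rise in each fit was Thy1, a surface protein also of other cells, which rose by 1.43 in p400 and 1.25 in Tip60 knockdown (adjusted p = 0.000989 and 1.04e-05). Thy1 carried the rise of that sum, at 10.06 to 10.25 in EGFP and 11.36 to 11.41 on Tip60 replicates 1, 2 and 4. In Tip60 knockdown Col1a1 stood at -0.11 (adjusted p = 0.338) and the related Col1a2 at -0.16 (adjusted p = 0.443), so the markers did not move as one. Of those that rose there, Fbn1 (0.51) and Pdgfra (0.60) stood at 0.21 and 0.08 with quantile normalization.

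Markers of the embryonic stem cell were present, with none of 9 below background. Of these, 0 rose and 3 fell in p400 and 1 rose and 1 fell in Tip60 knockdown: Sox2 fell by 0.21 in each (adjusted p = 0.0479 and 0.0197), and Pou5f1 stood at 0.05 and 0.06 (adjusted p = 0.818 and 0.505). Of 7 primitive endoderm markers 4 rose and 0 fell in p400 knockdown, and of 6 tested 5 rose and 0 fell in Tip60 knockdown, among them Sox17 (1.01 and 1.18, adjusted p = 0.00315 and 1.62e-05), whose Tip60 value was 0.72 with quantile normalization. In Tip60 knockdown Gata6, Sox7, Dab2 and Pdgfra rose by 0.42, 0.47, 0.24 and 0.60. With normexp correction and quantile normalization these values were 0.28, 0.19, 0.13 and 0.08. The summed log2 level of the 7 endoderm markers was 10.9 to 11.1 in EGFP and 11.0 to 11.2 in Tip60 knockdown. Of 6 neural markers 2 rose and 1 fell in p400 knockdown, and of 5 tested 1 rose and 1 fell in Tip60 knockdown. Beside these counts, 20.1% of all genes were called higher and 15.0% lower in p400 knockdown. In Tip60 knockdown the shares were 15.3% and 10.3%. The summed log2 level of the 9 stem cell markers was 19.0 to 19.4 in EGFP and 18.9 to 19.4 in Tip60 knockdown, and that of the neural markers was 13.03 to 13.11 and 13.19 to 13.32. Among the neural markers Tubb3, the brightest (12.4 in EGFP), rose by 0.37 in Tip60 knockdown, while Pax6 fell by 0.30 and Nes stood at -0.19. The part of these shifts in the members' falls was not tested.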

How the data were processed

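RNA from 12 samples was read on Agilent arrays. The deposited value table holds log2 values, taken from a comparison with the scanner files to be log2 ratios of p400 knockdown over EGFP and log2 single-colour levels; its normalization steps are not given in the sources used here. The scanner files hold spot intensity, background-subtracted and, for 2 colours, dye-normalized by Feature Extraction 9.5.1.1, and a log10 ratio of red over green, per the file headers. Probe positions are on build mm7. The scanner file of p400 replicate 4 had 3 joined lines, which were split. Values of this replicate in the submitters' table had an r of 0.915 with its loess ratios from the scanner file. On p400 replicates 1 to 3 this r was 0.987 to 0.988, and the cause of the difference was not found.

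Members and per-array values come from the deposited table. The members, gene lists and role groups were chosen with earlier results of these data known. Named are the 16 genes with the deepest joint falls, the members at the ends of the ratio of falls, and list genes past the threshold. For tests, p400 arrays were corrected by normexp (offset 50) and loess and fitted with a dye term, and single-colour processed signals were scaled to each array's 75th percentile, both in limma 3.58.1 (R 4.3.3) with Benjamini-Hochberg adjustment over all genes at 0.05. Each gene was represented by its brightest probe (mean scanner signal over the arrays of the fit) that 3 or more arrays of 1 group read well above background. Tip60 replicate 3 was left out of the fit. Where quantile normalization is named, single-colour mean signals were first corrected by normexp (offset 50), so background correction also differs from the main fit. The functions were tested on simulated data. Of 41174 probes, 22951 were named by accession, 6659 by symbol and 3109 by synonym through RefSeq, and 8455 kept the file's name. The CArG box was added to the motifs after the members were seen. P-values measure the spread between wells of 1 line. One member gene is counted but not reported by name here.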

Additional observations from a re-analysis of the deposited data

Results flagged for a closer look

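Among 48 groups of values examined, for the 16 named genes in each group of 4 arrays, 3 held an array far from the others, where chance gives about 1 in 20. The gap to the nearest array was compared with the group's whole range (Dixon's criterion at 95%). Efs in the EGFP arrays had a ratio of 0.909, with replicate 1 at 11.98 and the nearest at 12.08, a small distance beside its fall. LOC622675 in the Tip60 arrays had 0.933, with replicate 1 at 9.77 and the nearest at 9.63. Bahcc1 in the Tip60 arrays had 0.91, with replicate 3 at 11.87 and the nearest at 9.55.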

How the results depend on the processing

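The number of members followed the threshold: 327 with falls of at least 0.4 and 38 with at least 0.6, and 112 to 138 when 1 array was left out. Including Tip60 replicate 3 gave 162, of which 109 were among the 116, and scanner values normalized anew gave 122, of which 101 were. The members' median p400 ratio was -0.93 with median centring and -0.96 with the deposited log ratio, where the median of all probes shifted to -0.25 and -0.07, and -0.71 with loess. It was -0.72 with p400 RNA in Cy5 alone, -0.83 with it in Cy3 alone, and -0.79 to -0.75 leaving out 1 array. The median Tip60 difference was -0.62 with scaling to the 75th percentile, -0.60 with replicate 3 included, and -0.60 to -0.57 leaving out 1 array. Within slide 2 it was -0.59 and within slide 3 -0.57. Over all genes, limma called 2811 lower and 3766 higher in p400 knockdown. These became 6783 and 2882 with median centring and 4283 and 3894 with the deposited log ratio, and the lower calls were 1224 (without replicate 2) to 2541 leaving out 1 array, with 1693 without replicate 4. In Tip60 knockdown 1746 lower and 2586 higher became 817 and 2118 with no filter on dim probes and 1741 and 1736 with quantile normalization, and the lower calls were 1075 (without Tip60 replicate 4) to 1392 leaving out 1 array. The causes were not tested.

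Replicate numbers are shared between EGFP and Tip60 samples, and the deviations of same-numbered samples had r of -0.26, -0.33 and -0.12. Same-numbered arrays lay on different slides, so these r cannot show whether the wells were paired. The main fit did not treat them as pairs. With the replicate block 323 genes were lower and 1541 higher in Tip60 knockdown.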
